A study of Mus musculus with 2 samples.

Results

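The genes described here belong to transforming growth factor beta (TGF-beta) and bone morphogenetic protein (BMP) superfamily signalling. They were taken by symbol, as rows named Tgfb, Bmp, Gdf, Smad, Grem or Ltbp with digits and at most one letter, plus 18 named receptors, activin and inhibin subunits and antagonists. This gave 56 genes among the 20003 in the count table. RNA was sequenced from 2 libraries, so each group held 1 library. By its labels, the GANT61-labelled library came from mouse RAW 264.7 cells, as M2 macrophages, given GANT61 at 10 µM. GANT61 is an inhibitor of the GLI transcription factors that end the Hedgehog pathway. The DMSO-labelled library came from the same labelled cells given the solvent DMSO. Both had macrophage colony-stimulating factor at 20 ng/mL overnight and interleukin 4 at 10 ng/mL, with the inhibitor or solvent added 4 h before interleukin 4. The time with interleukin 4 was given as 15 min in one protocol text and 24 h in another, and the values cannot be tied to either. RAW 264.7 is a transformed mouse macrophage line.

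Ligands of this superfamily are secreted dimers that bring together type I and type II receptor kinases at the cell surface. The type I receptor then phosphorylates receptor-regulated SMAD proteins, which join SMAD4 and enter the nucleus to change transcription. SMAD2 and SMAD3 serve the TGF-beta and activin branch, and SMAD1, SMAD5 and SMAD9 serve the BMP branch. TGF-beta is stored in the matrix in a latent form, tethered by latent TGF-beta binding proteins, while BMPs and activins are held back by secreted antagonists. In macrophages TGF-beta is known as a brake on inflammatory activation and as a product of cells engaged in tissue repair.

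The GANT61-labelled library held 57705909 reads and the DMSO-labelled library 61632824. Macrophage markers were present in both, but so were markers that a macrophage line should lack, which goes against the cell line label. From 9 marker lists for cells other than macrophages, 61 of 69 genes were at 10 CPM (reads of a gene scaled to a common library depth) or more in both libraries, and 0 lacked reads in either. The 12 macrophage markers summed to 6491 CPM in the GANT61-labelled library, against 3121 CPM in the DMSO-labelled library. Beside that, 8 adipocyte markers summed to 771 against 5234 CPM, and 8 neutrophil markers to 783 against 167.5 CPM. The neutrophil sum was carried by S100a8, S100a9, Ltf and Csf3r, while Ngp was lower and the granule genes Camp, Elane and Mpo had at most 22 reads in the GANT61-labelled library and 39 in the DMSO-labelled library. The 10 fibroblast markers summed to 8650 against 7713 CPM, 8 epithelial markers to 3245 against 3701 CPM, and 8 endothelial markers to 532 against 620 CPM. The epithelial markers went both ways, with 3 ratios above 1 and 5 below. Among them Krt5 had a ratio of 3.13 (3.04 to 3.22) and Krt18 of 0.583 (0.575 to 0.591). Fibroblast Col1a1, epithelial Epcam, endothelial Pecam1 and adipocyte Adipoq were all above 10 CPM in both libraries. Gli1, the usual readout of GLI activity, had 7 reads in the GANT61-labelled library and 32 in the DMSO-labelled library. These are 0.123 and 0.511 CPM, under the floor of 1 CPM used below. Its ratio was 0.253 (0.0897 to 0.556), and no difference is claimed for it. Ptch1, another GLI target, had a ratio of 1.02 (0.945 to 1.10). Each library is called by its label throughout. In RNA from a mixture, fewer cells of a type and less RNA per cell cannot be told apart.

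Of the 56 genes, 43 averaged 1 CPM or more, and 14 of these differed by the rule of size used throughout. A gene was called higher or lower when the ratio of scaled counts, GANT61-labelled over DMSO-labelled, was at least 1.5 or at most 0.667, its 95% exact binomial interval excluded 1, and its mean level was at least 1 CPM. With 1 library per group there is no replicate check, no test across conditions and no p-value, and the intervals given with each ratio cover counting error only. By this rule 5 genes were higher (11.6%) and 9 lower (20.9%). Across all 13939 genes at or above this floor, 14.1% were called higher and 10.3% lower, 24.4% in all. The share called higher was thus somewhat below that of all genes, and the share called lower was above it. Without Bmp2k, which the rule took by name alone, the share called higher was 9.52%. When counts were scaled by library totals alone, 3 of the 43 genes were higher, beside 12.9% of all genes. The median log2 ratio was -0.08 over the 43 genes, beside -0.01 over all genes tested. The lower genes were ligands, latent TGF-beta binding proteins and 1 inhibitory SMAD, and the higher ones included Grem1, Bmp7, Tgfbr2 and Bmp2k.

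**Figure D1:**
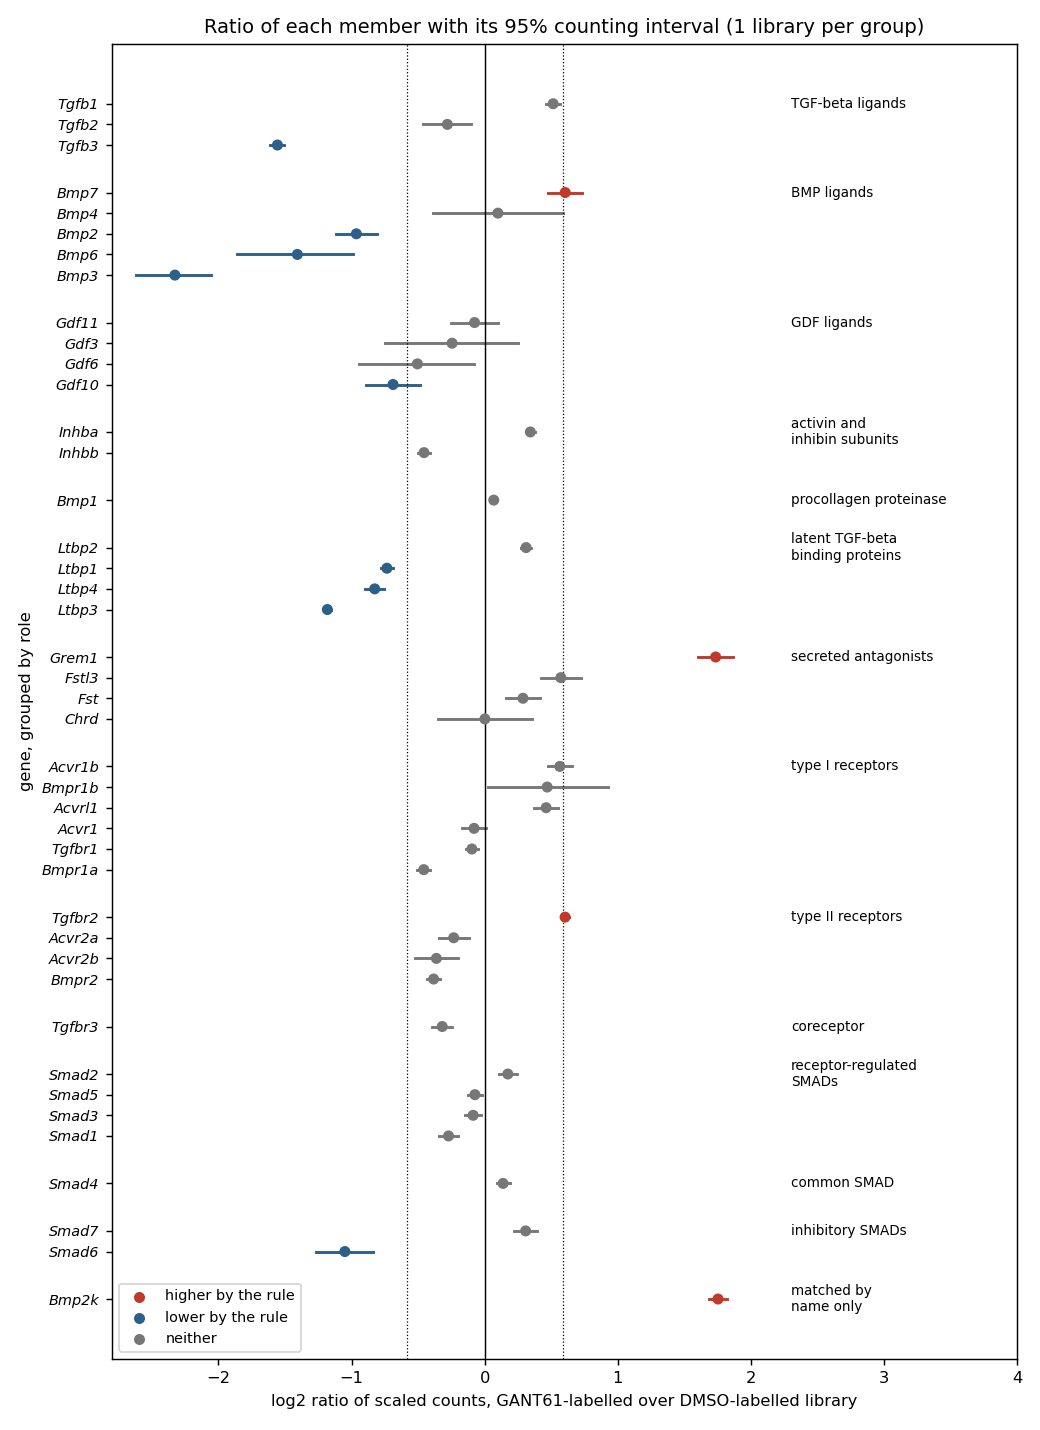
Log2 ratio of scaled counts, GANT61-labelled over DMSO-labelled library, for 42 of the 43 genes at or above the floor of 1 CPM, grouped by role. Bars are 95% counting intervals from 1 library per group, dotted lines mark ratios of 1.5 and its inverse, and red and blue mark the 4 higher and 9 lower genes shown, with Bmp3 farthest to the left and Bmp2k and Grem1 farthest to the right.

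Among the TGF-beta ligands, Tgfb3 was lower and Tgfb1 leaned the other way. Tgfb3, best known from palate and mammary development, had 3829 reads in the GANT61-labelled library, against 12403 in the DMSO-labelled library. These are 67.4 and 198 CPM, a ratio of 0.340 (0.328 to 0.353). Tgfb1, the main isoform of immune cells, was at 126 CPM in the GANT61-labelled library and 88.4 CPM in the DMSO-labelled library, a ratio of 1.43 (1.38 to 1.48) that fell short of the threshold. Tgfb2, at 7.87 CPM in the GANT61-labelled library and 9.56 CPM in the DMSO-labelled library, had a ratio of 0.823 (0.727 to 0.932). So 1 of the 3 isoforms was called, beside 24.4% of all genes, and the ratios of Tgfb1 and Tgfb3 lay on opposite sides of 1. Tgfb3 lies on chromosome 12 at 86056745 to 86079041, minus strand (mm10), and shares 7.60% of its exon bases with the opposite-strand gene Gm48008. Macrophage markers, with 11 of 12 higher and a median log2 ratio of 0.89, and adipocyte markers, with 8 of 8 lower and a median of -2.69, stand beside these ligands. Their part in the ligand ratios was not tested.

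The latent TGF-beta binding proteins, which dock latent TGF-beta to matrix fibres, had 3 of 4 genes lower, beside 10.3% of all genes. Ltbp3 had 14505 reads in the GANT61-labelled library and 36227 in the DMSO-labelled library. Its levels were 255 and 579 CPM, a ratio of 0.441 (0.433 to 0.450). Ltbp4, at 45.2 against 80.1 CPM, had a ratio of 0.564 (0.538 to 0.592). Ltbp1, at 107 against 178 CPM, had a ratio of 0.601 (0.583 to 0.620). These are the family members that bind latent TGF-beta, and each of them was lower. Ltbp2, which does not bind latent TGF-beta and acts in elastic fibres and microfibrils, was at 208 against 168 CPM, a ratio of 1.24 (1.21 to 1.27), and was not called. The 4 genes together summed to 615 CPM in the GANT61-labelled library, against 1004 CPM in the DMSO-labelled library. Fibroblast markers, the matrix-producing cells of most tissues, had a median of 0.18 beside these values, with 1 called higher among 10 and 0 called lower, and adipocyte markers had the median of -2.69. The part of either in the Ltbp ratios was not tested.

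Of the BMP ligands, 3 were lower and 1 higher among the 5 above the floor, where 10.3% of all genes were lower and 14.1% higher. Bmp3, an atypical BMP known to oppose other BMPs in bone, had 126 reads in the GANT61-labelled library and 698 in the DMSO-labelled library. At 2.22 and 11.2 CPM its ratio was 0.199 (0.163 to 0.241), the smallest among the 43 genes. Bmp6, which sets hepcidin production in the liver, had 61 and 179 reads, a ratio of 0.377 (0.276 to 0.504). Bmp2, an inducer of bone and cartilage, was at 8.87 against 17.3 CPM, a ratio of 0.513 (0.460 to 0.570). Bmp7, needed for kidney development and known in adipose tissue to promote the brown fat programme, was the exception. It was at 21.5 CPM in the GANT61-labelled library and 14.1 CPM in the DMSO-labelled library, a ratio of 1.52 (1.39 to 1.66). That call rests on the scaling, since with library totals alone the ratio was 1.47 and below the threshold. Bmp4 had 73 reads in the GANT61-labelled library and 75 in the DMSO-labelled library, a ratio of 1.07 (0.766 to 1.4997). Most of the BMP transcripts were thus scarce, and Bmp7 and Bmp2 carried most of the reads of this role. Adipocyte markers, with 8 of 8 lower and a median of -2.69, stand beside the lower BMP ligands, and their part was not tested. Bmp3 lies on chromosome 5 at 98854415 to 98884396, plus strand, and shares no exon bases with another gene in the annotation.

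The growth differentiation factors (GDFs) were scarce, and 4 of 10 passed the floor. Gdf10, a relative of Bmp3, was the called one, at 5.56 CPM in the GANT61-labelled library and 8.96 CPM in the DMSO-labelled library, a ratio of 0.621 (0.539 to 0.713). Gdf11, a regulator of axial patterning, was at 8.43 against 8.88 CPM, a ratio of 0.949 (0.838 to 1.07). Gdf6 had 76 against 119 reads, a ratio of 0.705 (0.520 to 0.946), and Gdf3 had 62 against 81 reads, a ratio of 0.844 (0.596 to 1.19). All 4 ratios were below 1, as were those of 7105 of the 13939 genes tested, and the intervals of Gdf11 and Gdf3 include 1. By the rule 1 of the 4 was lower, beside 10.3% of all genes, and 3 did not meet it.

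The activin subunits were abundant and leaned in opposite directions without reaching the threshold. Inhba, which encodes the subunit of activin A, was at 236 CPM in the GANT61-labelled library and 186 CPM in the DMSO-labelled library. Its ratio was 1.27 (1.24 to 1.301). Inhbb, the subunit of activin B, was at 106 against 145 CPM, a ratio of 0.729 (0.706 to 0.754). Both intervals exclude 1, so counting error does not cover either difference. Inha, the subunit that turns an activin into an inhibin, had 30 reads in the GANT61-labelled library and 17 in the DMSO-labelled library, too few to pass the floor.

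Among the secreted antagonists, Grem1 was higher, and Fstl3, Fst and Chrd were not called. Grem1, which binds BMP2, BMP4 and BMP7 and is a marker of some fibroblast populations, had 1890 reads in the GANT61-labelled library, against 625 in the DMSO-labelled library. At 33.3 and 9.99 CPM its ratio was 3.33 (3.04 to 3.65). Fstl3, which binds activins, was at 14.6 against 9.81 CPM, a ratio of 1.49 (1.34 to 1.65) just under the threshold. It shares 47.3% of its exon bases with Prss57 on the opposite strand, so its reads may not be its own alone. Fst, the activin-binding protein follistatin, was at 18.3 against 15.0 CPM, a ratio of 1.22 (1.12 to 1.33). Chrd, the BMP antagonist chordin, had 130 reads in the GANT61-labelled library and 143 in the DMSO-labelled library, with a ratio of 1.001 (0.783 to 1.28) whose side of 1 changed with the scaling. Fibroblast markers, among which Pdpn alone was called higher, had a median of 0.18 beside them, and their part was not tested. Grem1 lies on chromosome 2 at 113746164 to 113758646, minus strand.

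Of the 10 type I and type II receptors, 1 was called, beside 24.4% of all genes. It was the type II receptor Tgfbr2, whose ratio was close to the threshold. Tgfbr2, the type II receptor that binds TGF-beta, had 21438 reads in the GANT61-labelled library and 15533 in the DMSO-labelled library. At 377 and 248 CPM its ratio was 1.52 (1.49 to 1.55). It fell below the threshold with library totals, at 1.47, and with the trend in gene length removed, at 1.49, so the call rests on the scaling. The other type II receptors had ratios below 1 and were not called. They were Bmpr2, for BMPs, at 0.767 (0.740 to 0.794), and the activin receptors Acvr2b at 0.778 (0.694 to 0.871) and Acvr2a at 0.851 (0.786 to 0.921). Tgfbr3, the coreceptor betaglycan that presents TGF-beta2, was at 45.7 CPM in the GANT61-labelled library and 57.0 CPM in the DMSO-labelled library, a ratio of 0.802 (0.762 to 0.844).

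None of the 6 type I receptors was called, beside 24.4% of all genes, and their ratios ran between 0.728 and 1.48. Acvr1b, or ALK4, the activin receptor, had the highest ratio of these, with 42.1 CPM in the GANT61-labelled library against 28.5 CPM in the DMSO-labelled library and a ratio of 1.48 (1.39 to 1.57). Acvrl1, or ALK1, best known from endothelial cells, was at 40.5 against 29.4 CPM, a ratio of 1.38 (1.29 to 1.47). Beside it, the median of the 8 endothelial markers was -0.36, with 2 called lower and 0 higher, and their part in the Acvrl1 ratio was not tested. Bmpr1a, the BMP receptor ALK3, was at 101 against 138.5 CPM, a ratio of 0.728 (0.704 to 0.753). Tgfbr1, or ALK5, was at 119 against 127 CPM, a ratio of 0.936 (0.906 to 0.967), and Acvr1, or ALK2, at 31.0 against 32.7 CPM, a ratio of 0.946 (0.887 to 1.01). Bmpr1b had 97 reads in the GANT61-labelled library and 77 in the DMSO-labelled library, a ratio of 1.38 (1.02 to 1.90).

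The SMADs that carry the signal were close to equal in both libraries, and the BMP-induced inhibitor Smad6 was lower. Smad2 was at 64.7 CPM in the GANT61-labelled library and 57.3 CPM in the DMSO-labelled library, a ratio of 1.13 (1.08 to 1.18). Smad3 had a ratio of 0.942 (0.904 to 0.981), Smad5 of 0.951 (0.916 to 0.986) and Smad1 of 0.829 (0.788 to 0.871). Smad4, the common partner, had 6858 reads in the GANT61-labelled library and 6862 in the DMSO-labelled library, a ratio of 1.10 (1.06 to 1.14) after scaling. Smad6, an inhibitor of BMP signalling that BMPs themselves induce and that is prominent in vessels, had 266 against 607 reads. At 4.68 and 9.70 CPM its ratio was 0.483 (0.416 to 0.558). Endothelial markers, with 2 of 8 lower and a median of -0.36, stand beside it, and their part was not tested. Smad7, the inhibitor induced by TGF-beta, was at 40.3 against 32.6 CPM, a ratio of 1.24 (1.17 to 1.31), and was not called. Smad6 and Smad7 thus lay on opposite sides of 1, while the 5 signalling SMADs above the floor lay between 0.829 and 1.13.

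The symbol rule also took 2 genes named Bmp with a digit that do not encode ligands. Bmp1 encodes a metalloproteinase that trims procollagen and also cleaves the antagonist chordin. It was at 360 CPM in the GANT61-labelled library and 343 CPM in the DMSO-labelled library, a ratio of 1.05 (1.03 to 1.07). Bmp2k, a kinase named for its induction by BMP2 and related to an endocytic adaptor kinase, had 7128 reads in the GANT61-labelled library and 2329 in the DMSO-labelled library. At 125 and 37.2 CPM its ratio was 3.37 (3.22 to 3.53), the largest of the 43. It shares 14.0% of its exon bases with the opposite-strand gene Paqr3. Without Bmp2k, 4 of 42 genes were higher (9.52%, beside 14.1% of all genes) and 9 were lower (21.4%, beside 10.3%). The median was then -0.08.

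Another 13 genes stayed under the floor of 1 CPM, with at most 45 reads in the GANT61-labelled library and 43 in the DMSO-labelled library. Smad9, the third BMP SMAD, had 4 against 27 reads, and Gdf5, a joint-forming ligand, had 4 against 22. Bmp5 had 18 against 43 reads. Gdf15, a stress-induced ligand, had 45 reads in the GANT61-labelled library and 25 in the DMSO-labelled library. Gdf9 had 34 against 28 reads, Nog, the BMP antagonist noggin, 18 against 15, and Gdf1 10 against 14. Gdf1 lies wholly within exons of Cers1 on its own strand, so its reads cannot be assigned to it alone. The remaining 5, which were Bmp15, Bmp8a, Bmp8b, Gdf2 and Gdf7, had between 0 and 9 reads in either library. A count of 0 allows up to 3 reads. At this depth no difference is claimed for these genes.

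Per gene length, Tgfbr2, Bmp1 and Tgfb1 led in the GANT61-labelled library, and Ltbp3, Bmp1 and Tgfb3 in the DMSO-labelled library. Levels on this scale are the deposited RPKM values, which divide the reads of a gene by its length and by the depth of the library. Tgfbr2 stood at 62.2 RPKM in the GANT61-labelled library and 41.1 RPKM in the DMSO-labelled library, and Bmp1 at 61.8 against 59.2 RPKM. Ltbp3 stood at 38.8 against 88.4 RPKM, and Tgfb3 at 15.7 against 46.4 RPKM. The largest difference in rank among the 43 genes was that of Grem1, at 16.0 against 4.83 RPKM, which held rank 8 in the GANT61-labelled library and rank 24 in the DMSO-labelled library. Bmp ligands were low in both, with Bmp7 highest in the GANT61-labelled library at 4.62 RPKM and Bmp2 highest in the DMSO-labelled library at 3.85 RPKM. Smad1, Smad3 and Smad4 were neighbours in both libraries, within 11.4 to 15.2 RPKM.

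**Figure D2:**
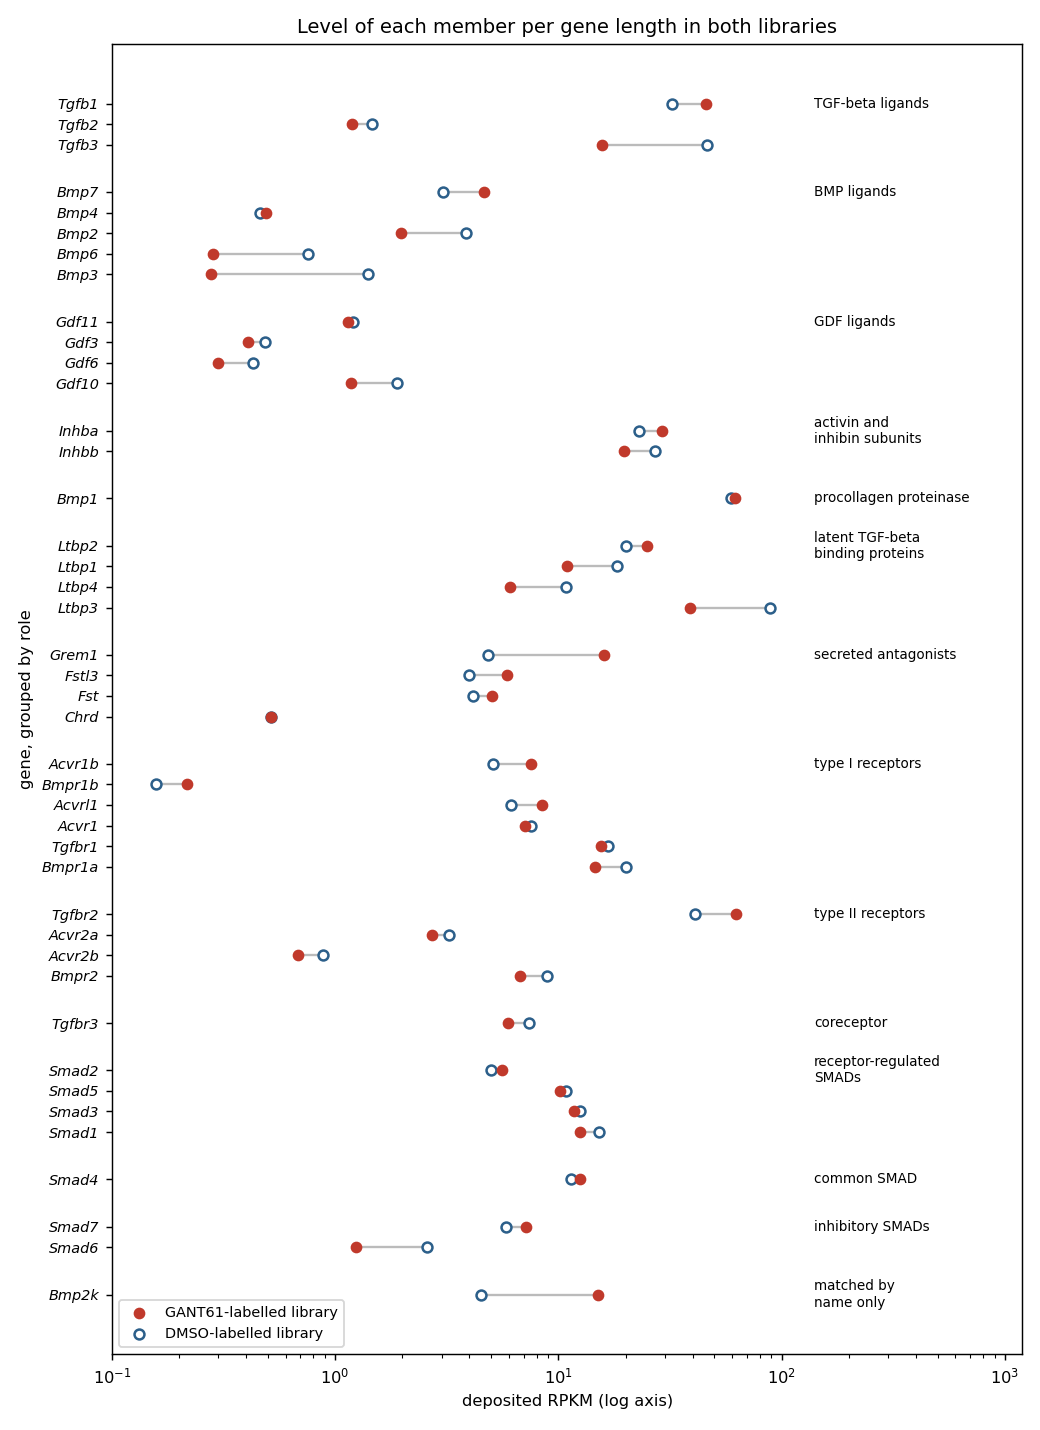
Deposited RPKM of 42 of the 43 genes on a log axis, grouped by role, with the GANT61-labelled library filled in red and the DMSO-labelled library as open blue circles. Each gene has 1 value per library and no error bar, and Tgfb3, Ltbp3 and Bmp3 have the open circle far to the right of the filled one, and Grem1 and Bmp2k have it far to the left, while the signalling SMADs nearly coincide.

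Ratios of one gene to another inside a library do not depend on how the libraries are scaled to each other. For 13 pairs, chosen after the values were seen, the RPKM ratio was computed in each library with a 95% interval for counting error. Tgfb3 over Tgfb1 was 0.343 (0.330 to 0.357) in the GANT61-labelled library and 1.44 (1.396 to 1.49) in the DMSO-labelled library, so the leading isoform was Tgfb1 in the first and Tgfb3 in the second. Inhba over Inhbb was 1.49 (1.44 to 1.53) in the GANT61-labelled library, against 0.854 (0.831 to 0.878) in the DMSO-labelled library. The order of the activin subunits thus differed as well. Grem1 over Bmp2, an antagonist over a ligand it binds, was 8.16 (7.39 to 9.02) against 1.26 (1.14 to 1.39). Bmp7 over Bmp2 was 2.35 (2.12 to 2.62) in the GANT61-labelled library, against 0.793 (0.725 to 0.868) in the DMSO-labelled library. Smad6 over Smad7 was 0.173 (0.152 to 0.197) against 0.445 (0.406 to 0.487). Ltbp3 over Tgfb1, a binding protein over its cargo, was 0.847 (0.823 to 0.871) in the GANT61-labelled library and 2.74 (2.67 to 2.82) in the DMSO-labelled library. Fst over Inhba was nearly equal in both, at 0.174 (0.163 to 0.185) against 0.180 (0.169 to 0.193), with intervals that overlap. The intervals of the other pairs named here do not overlap between the libraries, and none of these contrasts has a replicate. The pairs were chosen with the values known, so this lack of overlap restates the ratios of the single genes and is not a test.

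**Figure D3:**
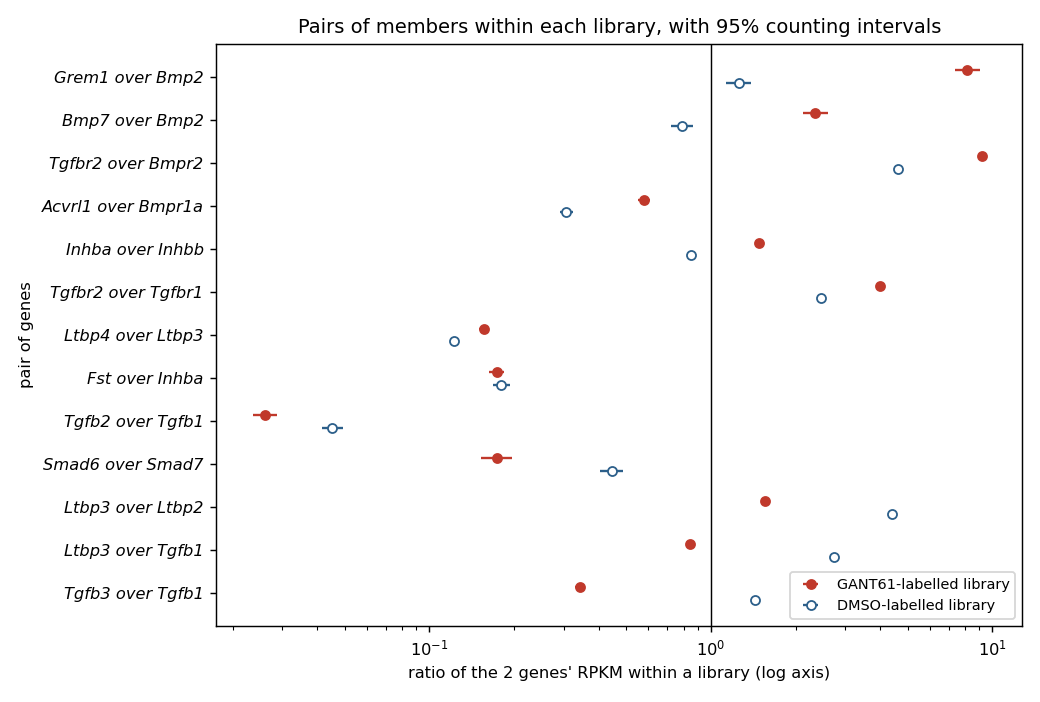
Ratio of the RPKM values of 2 genes within each library on a log axis, for 13 pairs, with the GANT61-labelled library in filled red and the DMSO-labelled library in open blue and 95% counting intervals as bars. Grem1 over Bmp2 lies farthest to the right of its DMSO-labelled value, and Tgfb3 over Tgfb1 farthest to the left, crossing the line at 1, while Fst over Inhba overlaps.

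Promoter windows are shown for called genes with the largest difference in their role, because these genes carry the differences above and SMAD and GLI motifs can be looked up in them. A window runs 250 bases before to 50 bases after the start of the gene, from RefSeq on GRCm38.p6, the patch release of the mm10 assembly, and 39 of the 56 genes had one. The called genes that averaged 5 CPM or more and led their role were Bmp3, Grem1, Tgfb3, Ltbp3, Smad6, Gdf10 and Tgfbr2, in order of the size of the difference. The first 4 with a window are shown, and Bmp3 and Tgfb3 had no entry. Capitals mark CAGAC, a core SMAD-binding site, GGCGCC, a site bound by BMP-activated SMADs, and GTCTAGAC, the palindromic SMAD box, on either strand, and each is printed 5′ to 3′ on the strand of its gene. The windows are chr2:113758599-113758898 (minus strand) for Grem1, chr19:5740650-5740949 (plus strand) for Ltbp3, chr9:64022010-64022309 (minus strand) for Smad6 and chr14:33923337-33923636 (plus strand) for Gdf10.
Grem1: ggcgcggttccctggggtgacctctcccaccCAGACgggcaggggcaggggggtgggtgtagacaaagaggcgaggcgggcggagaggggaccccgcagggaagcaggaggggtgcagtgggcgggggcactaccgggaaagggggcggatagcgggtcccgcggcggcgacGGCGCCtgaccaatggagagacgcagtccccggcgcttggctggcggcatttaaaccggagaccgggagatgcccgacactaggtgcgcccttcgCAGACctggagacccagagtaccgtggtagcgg
Ltbp3: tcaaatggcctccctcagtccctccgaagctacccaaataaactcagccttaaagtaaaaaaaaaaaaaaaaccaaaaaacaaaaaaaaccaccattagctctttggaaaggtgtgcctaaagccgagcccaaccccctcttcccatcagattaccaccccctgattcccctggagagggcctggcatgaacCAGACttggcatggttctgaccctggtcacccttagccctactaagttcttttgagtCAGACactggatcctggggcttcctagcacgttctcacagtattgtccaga
Smad6: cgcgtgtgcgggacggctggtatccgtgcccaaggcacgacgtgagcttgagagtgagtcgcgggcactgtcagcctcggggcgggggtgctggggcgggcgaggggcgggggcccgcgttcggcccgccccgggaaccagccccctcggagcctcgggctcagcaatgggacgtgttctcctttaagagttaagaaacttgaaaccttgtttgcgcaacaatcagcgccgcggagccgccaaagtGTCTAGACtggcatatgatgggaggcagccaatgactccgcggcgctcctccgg
Gdf10: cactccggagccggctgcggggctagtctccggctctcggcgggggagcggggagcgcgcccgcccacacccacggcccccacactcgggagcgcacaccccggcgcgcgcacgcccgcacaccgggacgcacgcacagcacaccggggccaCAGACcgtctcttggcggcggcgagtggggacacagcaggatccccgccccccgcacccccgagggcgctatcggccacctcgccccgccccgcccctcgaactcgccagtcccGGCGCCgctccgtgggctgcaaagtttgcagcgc

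The Grem1 window, of the gene higher in the GANT61-labelled library, held 2 CAGAC and 1 GGCGCC. The windows of the lower genes differed among themselves. Ltbp3 held 2 CAGAC, Gdf10 held 1 CAGAC and 1 GGCGCC, and Smad6 held neither but had 1 GTCTAGAC, a motif added to the search after that window was seen. CAGAC was in the windows of 21 of 39 genes (53.8%), beside 53.2% of the 27025 genes with a window. GGCGCC was in 12 of 39 (30.8%), beside 13.4%, and the windows of these genes had a median of 64.3% G and C, beside 52.7% over all windows. GTCTAGAC was in 1 of 39, beside 0.248% of all genes. The GLI site GACCACCCA was in 0 of 39, beside 0.289% of all genes. The motifs do not overlap each other in the windows shown. A match is a description of the letters, and no match says only that they are absent from this window.

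Beyond the 56 genes, 5 lists of pathway genes were described by the same rule. They held 111 distinct genes in the table, of which 94 were above the floor, with 20 called higher (21.3%, beside 14.1% of all genes) and 11 lower (11.7%, beside 10.3%). The share called lower was thus near that of all genes. Other ligands, coreceptors and secreted inhibitors had 16 genes above the floor. Of these, 5 were lower (31.2%, beside 10.3% of all genes) and 2 higher (12.5%, beside 14.1%), and the median log2 ratio was -0.23. Acvr1c, the type I receptor ALK7 that is prominent in adipose tissue, was lowest, at 3.04 CPM in the GANT61-labelled library and 14.1 CPM in the DMSO-labelled library, a ratio of 0.217 (0.183 to 0.255). Chrdl1, a chordin-like BMP antagonist, had a ratio of 0.274 (0.229 to 0.325), and Rgma, a BMP coreceptor, of 0.380 (0.345 to 0.419). Tsku, a secreted inhibitor, was the highest at 2.16 (1.97 to 2.37). Secreted antagonists therefore did not all lie on one side once the list was widened. Adipocyte markers, with 8 of 8 lower, stand beside Acvr1c, and their part was not tested.

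Genes that process, tether or release TGF-beta had 22 members above the floor. Of these, 9 were higher (40.9%, beside 14.1% of all genes) and 2 lower (9.09%, beside 10.3%). Their median log2 ratio was 0.32. Mmp9, a metalloproteinase of macrophages and neutrophils, was at 595 CPM in the GANT61-labelled library and 139 CPM in the DMSO-labelled library, a ratio of 4.29 (4.19 to 4.39). Nrros, which tethers latent TGF-beta on macrophages and microglia, had a ratio of 2.34 (2.24 to 2.44). Emilin1, a matrix protein that limits processing of the TGF-beta precursor, had a ratio of 2.07 (1.97 to 2.17). Fbn2, a fibrillin of the microfibrils that carry latent complexes, was lower at 0.489 (0.413 to 0.576). Furin, outside the 4 genes that the naming rule gives, is the convertase that cuts the TGF-beta precursor, and was at 254 against 146 CPM, a ratio of 1.74 (1.69 to 1.78). Macrophage markers, with 11 of 12 higher and sums of 6491 against 3121 CPM, and neutrophil markers, with 4 higher and 1 lower of 5 above the floor, stand beside Mmp9 and Nrros, and their part was not tested.

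The 26 intracellular regulators had a median log2 ratio of 0.0047, which was -0.04 with library totals, and 2 were higher and 1 lower. Smurf1, a ubiquitin ligase that degrades BMP SMADs, had a ratio of 1.61 (1.55 to 1.66). Tgfbrap1, a receptor-associated protein, was at 1.55 (1.47 to 1.64), and Tgif2, a corepressor of SMADs, at 0.610 (0.558 to 0.666). The share called here, 11.5%, was below the 24.4% of all genes.

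**Figure D4:**
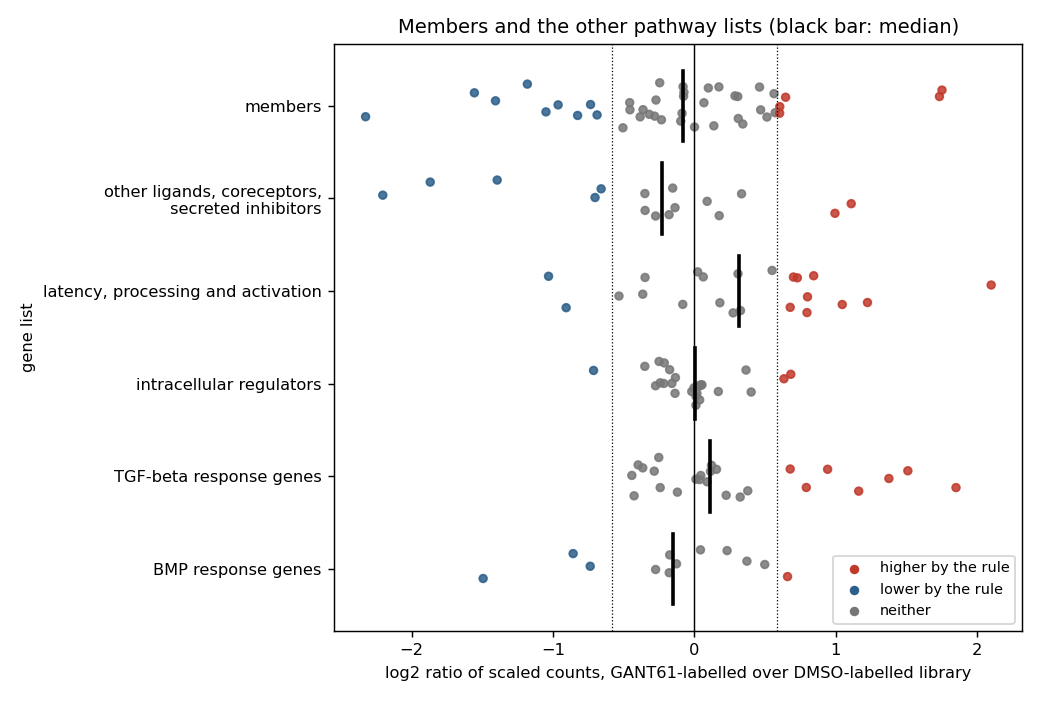
Log2 ratio of scaled counts, GANT61-labelled over DMSO-labelled library, for the 43 genes of the superfamily and the 5 other pathway lists, 1 point per gene with vertical jitter and black bars at the medians. Red and blue mark genes higher and lower by the rule, and dotted lines mark ratios of 1.5 and its inverse, and the processing and activation list has its median farthest to the right, at 0.32.

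Of 25 genes known to respond to TGF-beta, 7 were higher (28.0%, beside 14.1% of all genes) and 0 were lower (beside 10.3%). Their median log2 ratio was 0.11. Timp1, an inhibitor of metalloproteinases, was at 263 CPM in the GANT61-labelled library and 72.9 CPM in the DMSO-labelled library, a ratio of 3.61 (3.49 to 3.73). Tgfbi, a matrix protein named for its induction by TGF-beta, had a ratio of 2.85 (2.79 to 2.91), Cdkn1a, a cell cycle inhibitor, of 2.60 (2.46 to 2.74), and Bhlhe40, a transcription factor, of 2.24 (2.18 to 2.301). Feedback inhibitors in the list were not called, with ratios of 1.01 for Skil and 0.846 for Pmepa1. Ctgf, a matricellular target, was at 136 against 166 CPM, and Acta2, the smooth muscle actin of myofibroblasts, at 114 against 155 CPM, a ratio of 0.736. Of the 25 genes, 5 are also fibroblast or smooth muscle markers. Macrophage markers had a median of 0.89 beside the higher genes, and their part was not tested.

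The BMP response list had 12 members above the floor, of which 1 was higher (8.33%, beside 14.1% of all genes) and 3 were lower (25%, beside 10.3%), and their median log2 ratio was -0.15. Hey1, also a target of Notch in vessels, was at 5.31 CPM in the GANT61-labelled library and 15.0 CPM in the DMSO-labelled library, a ratio of 0.355 (0.310 to 0.404). Atoh8 had 94 against 188 reads, a ratio of 0.552 (0.425 to 0.709), and Id3, a direct BMP target, was at 39.2 against 65.3 CPM, a ratio of 0.600 (0.570 to 0.632). Gata2, a blood cell transcription factor, was higher at 1.58 (1.36 to 1.84). Id1, the most used BMP readout, was at 27.7 against 31.3 CPM, a ratio of 0.884, and Id2 at 97.8 against 83.3 CPM, a ratio of 1.17, neither called. The 3 Id genes named were thus on both sides of 1. Endothelial markers had a median of -0.36 and adipocyte markers of -2.69 beside Hey1 and Id3, and their part was not tested.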

How the data were processed

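Per the labels, total RNA was column purified and sequenced after a standard Illumina preparation. The authors deposited expected counts, estimated reads per gene that were not normalized, and RPKM values, each with 1 column per library. The submitters' processing notes list 2 aligners (HISAT2 and STAR), a trimmer (cutadapt), SAMtools and Partek, with mouse build mm10 beside human build hg19. Their roles, versions, the annotation and the strand setting are not given in the sources used here. Of the deposited counts, 29.5% in the GANT61-labelled library and 29.8% in the DMSO-labelled library had a fractional part, and were rounded. Each column was matched to a library by the treatment it names. The numbers in the column names differ from those in the sample titles, so the match rests on the treatment name alone.

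The rounded counts were scaled by edgeR 4.0.16 trimmed mean of M values (TMM) factors under R 4.3.3, 0.985 for the GANT61-labelled library and 1.02 for the DMSO-labelled library, and CPM levels use them. Ratios carry a prior count of 0.5 per library and a 95% exact Clopper-Pearson interval (scipy 1.17.1). No molecular identifiers are stated, so reads may repeat a molecule and intervals cover counting error only. Rounded totals were 57705909 reads in the GANT61-labelled library and 61632824 in the DMSO-labelled library. The limit for a count of 0 was 3 reads, which is 0.0528 CPM in the GANT61-labelled library and 0.0479 CPM in the DMSO-labelled library. The rule was checked on simulated counts that held counting error alone, so that check does not cover variation between samples. Gene positions and exon overlaps are from GENCODE M21 (GRCm38).

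Genes, lists, pairs and rules were chosen with earlier results of these data known. Every superfamily gene with a mean of at least 1 CPM is named, except 1 that is counted but not reported here, those below it where a library had at least 10 reads, and in each other list up to 4 called genes by size. Furin, Id1, Id2, Skil, Pmepa1, Ctgf and Acta2 were added after their values were seen. Of the list entries, 2 had no row in the table. Alternatives were DESeq2 1.42.0 size factors, library totals, upper quartile scaling, other priors, floors and folds, unrounded counts, RPKM values on a log2 scale with a pseudocount of 0.1 or 1, and removal of the length trend (statsmodels 0.14.6).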

Additional observations from a re-analysis of the deposited data

How the results depend on the processing

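Under 6 alternatives (DESeq2 size factors, library totals, upper quartile scaling, unrounded counts, RPKM with a pseudocount of 0.1, length trend removed), 12 of the 14 calls held, and the ratios of 0 called genes changed side of 1. Bmp7 lost its call with library totals (1.47) and upper quartile scaling (1.48). Tgfbr2 lost its call with these (1.47 and 1.48) and with the length trend removed (1.49), where Fstl3 gained one (1.53). The 5 higher genes of 43 were therefore 3 of 43 with library totals or upper quartile scaling, beside 12.9% and 13.1% of all genes. They were 3 of 48 by RPKM with a pseudocount of 1, beside 8.49%. With no floor they were 8 of 56, beside 13.4%. At a fold threshold of 2 there were 2 higher and 5 lower, where 6.97% of all genes were higher and 4.27% lower. The count of lower genes was between 7 and 12 elsewhere, among 37 to 56 genes, beside 5.56% to 11.5% of all genes. The median was between -0.12 and -0.05. Library totals split all genes into 12.9% higher and 11.5% lower. Among the other pathway lists, RPKM with a pseudocount of 0.1 gave 4 higher of 18 ligands, coreceptors and inhibitors, beside 14.5% of all genes. The main setting gave 2 of 16, so the RPKM floor also let in more genes. No other list count moved by over 1.5 times. The median log2 ratio was -0.08 in place of -0.15 for BMP response genes with the length trend removed, 0.07 in place of 0.11 for TGF-beta response genes with library totals, and below 0 for intracellular regulators with library totals (-0.04), upper quartile scaling (-0.04) and the length trend removed (-0.04). No paired analysis was possible because each group held 1 library, and for the same reason no library could be left out. The causes of these changes were not tested. Depth limits the 13 genes under the floor.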
